A study of Mus musculus with 48 samples.

Results

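The collagen genes were followed in the Cornus Ammonis, the part of the hippocampus that holds its pyramidal cells, of mice lacking the cannabinoid receptor CB1 in glutamatergic or in GABAergic neurons. A gene was counted as a collagen gene when its symbol was Col, a number, a, a number, and it was reported when at least 24 of the 48 libraries held 10 or more of its counts. Of 24421 genes in the table, 44 carried such a symbol and 42 were reported; Col10a1 and Col17a1 had too few counts. Each library came from 1 male mouse of 8 weeks by its label. In the Glu-CB1 line (strain entry nex-cre x CB1f/f) Cre is driven by nex1 elements, which are active in glutamatergic neurons, and the libraries were 5 Glu-CB1-WT and 7 Glu-CB1-KO at basal (home cage) conditions and 5 Glu-CB1-WT and 7 Glu-CB1-KO after 5 min in an open field arena. In the GABA-CB1 line (dlx5/6-cre x CB1f/f) Cre is driven by dlx5/6 elements, which are active in GABAergic neurons, and the libraries were 6 GABA-CB1-WT and 6 GABA-CB1-KO at basal conditions and 7 GABA-CB1-WT and 5 GABA-CB1-KO after the open field. The strain entry, with its floxed CB1 allele, was the same for WT and KO mice of a line, and no mouse lacked CB1 in all cells. The tissue was bulk: the dentate gyrus had been removed by hand, and glia, vessels and any attached membrane stayed in the sample.

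Collagens are the main structural proteins of the extracellular matrix. Their chains wind around each other into a rope-like helix in the endoplasmic reticulum, after prolyl and lysyl hydroxylases have modified them, and the helices then assemble outside the cell into fibrils, sheets or beaded filaments, or stay anchored in the membrane. In the brain they are best known from the basement membrane of blood vessels, the meninges and the choroid plexus, while some chains are made by neurons.

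The libraries held 25892654 to 34091080 counts (median 30975561), of which the collagen genes took 0.0617% to 0.0880%. The mean share per group lay between 0.0760% and 0.0792%. CPM is the count scaled to library size with TMM factors, except that single levels of Cnr1, Ttr and Xkr4 are without those factors. Cnr1, which encodes CB1, was at 333 to 402 CPM in Glu-CB1-WT and 205 to 247 in Glu-CB1-KO. It was at 316 to 391 in GABA-CB1-WT and 103 to 160 in GABA-CB1-KO, so every library matched its genotype label. The hemoglobin genes Hbb-bs and Hba-a1 were at 0 in all libraries. Alas2, also on the list of blood markers, was at 0.782 to 2.32 CPM, so the values of 0 do not show tissue free of blood. The summed level of 6 dentate granule markers ran from 95.95 to 292.9 CPM, so removal of the dentate gyrus cannot be taken as complete. It overlapped between genotypes in every line and state. Some libraries stood apart. In 4 libraries Ttr, a marker of choroid plexus, was at 236 to 3940 CPM against 11.9 to 74.7 in the other 44, and in 14 libraries Xkr4 was at 3.24 to 5.56 CPM against 8.80 to 39.1 in the other 34. Both are taken up below with the genes they touched.

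Collagen mRNA in the Cornus Ammonis was dominated by a few chains. Col25a1, Col4a2, Col4a1, Col6a1 and Col19a1 together made up 65.0% of all collagen CPM. Of the 42 genes 14 had a mean over 10 CPM, 23 lay between 1 and 10 CPM, and 5 lay under 1 CPM. Per kb of exon, the scale on which genes can be compared, the mean level spanned 218.1-fold, from Col4a2 at 20.06 CPM per kb down to Col6a6 at 0.0920. The group means of 30 genes differed by less than 1.5-fold between the lowest and the highest of the 8 groups.

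**Figure D1:**
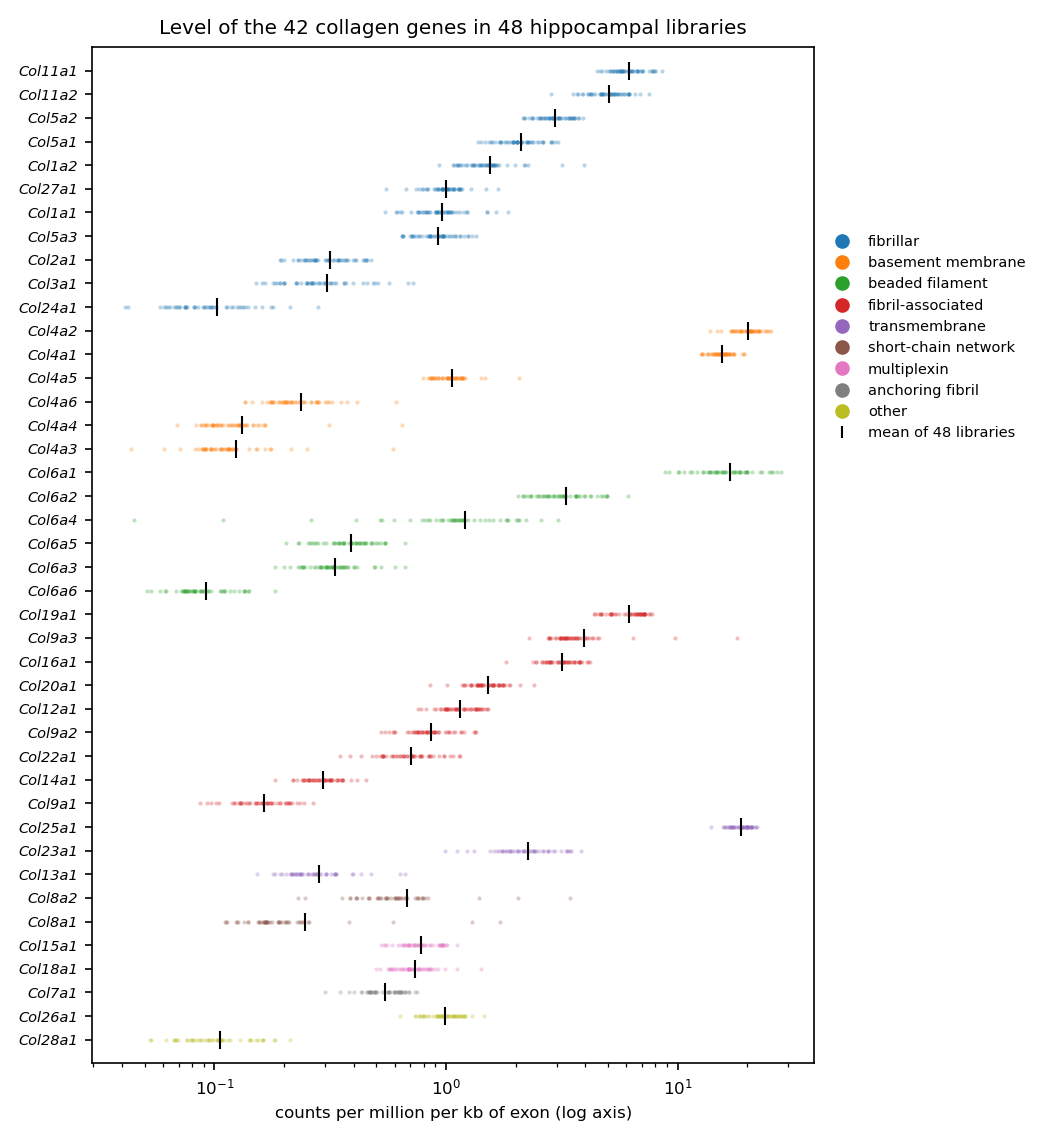
Level of the 42 collagen genes in the 48 libraries. The x axis is CPM per kb of exon on a log scale, each dot is a library, the black tick is the mean of the 48 libraries, and colours mark the structural class; Col4a2, Col25a1, Col6a1 and Col4a1 lie to the right of all others, and single dots far to the right of their row are seen for Col8a1, Col8a2, Col9a3, Col4a3 and Col4a4.

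The basement membrane chains of type IV, which form the sheet under endothelium, took 31.26% of collagen CPM with 6 genes. Col4a2 ranged over the 48 libraries from 88.2 to 163 CPM, and its group medians lay between 116 in GABA-CB1-KO basal and 138 in Glu-CB1-KO open field. Its partner Col4a1 was at 15.5 CPM per kb with a range of 83.8 to 128 CPM. The remaining chains were far lower, with Col4a5 at 1.06 CPM per kb and Col4a6, Col4a4 and Col4a3 between 0.124 and 0.238.

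The transmembrane collagens, which keep their amino end in the cell membrane, took 19.88% with 3 genes. Almost all of it was Col25a1, a collagen of neurons known as the precursor of a component of amyloid plaques. Col25a1 was at 18.75 CPM per kb with a range of 104 to 165 CPM, and its group medians ran from 131 CPM in Glu-CB1-KO open field to 150 in GABA-CB1-KO basal. Col23a1 was at 2.27 CPM per kb and Col13a1 at 0.284.

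The fibrillar collagens took 18.09% with 11 genes. The abundant chains of skin, tendon and bone were low, with Col1a2 at 1.55, Col1a1 at 0.965 and Col3a1 at 0.306 CPM per kb. The minor fibril chains were higher: Col11a1, which nucleates and limits the width of cartilage-type fibrils, was at 6.16 CPM per kb and Col11a2, a chain of the same molecule, at 5.06. Col5a2 and Col5a1, of the related type V, were at 2.96 and 2.10.

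The fibril-associated collagens, which decorate the surface of fibrils, took 15.71% with 9 genes, led by Col19a1 at 6.16 CPM per kb. Col19a1, which is made by interneurons in the hippocampus, ranged from 46.1 to 81.4 CPM, with group medians from 58.9 in Glu-CB1-KO open field to 75.6 in GABA-CB1-KO basal. The beaded filament chains of type VI took 12.37% with 6 genes, led by Col6a1 at 16.8 CPM per kb. Col6a1 ranged from 35.03 to 111 CPM, a 3.18-fold range against 1.53-fold to 1.85-fold for the other 4 leading genes, and its group medians ran from 57.7 in GABA-CB1-KO open field to 74.9 in Glu-CB1-KO open field.

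The other classes were minor. The multiplexins Col15a1 and Col18a1, of the vascular basement membrane zone, took 1.088%, and Col15a1 at 0.781 CPM per kb ranged from 2.78 to 5.95 CPM. The anchoring fibril collagen Col7a1, at 0.547 CPM per kb, ranged from 2.76 to 6.87 CPM. The short-chain pair Col8a1 and Col8a2, of the corneal and vascular hexagonal network, took 0.542%, and Col8a2 at 0.680 CPM per kb ranged from 0.992 to 14.9 CPM. Col26a1, at 0.992 CPM per kb, ranged from 1.71 to 3.95 CPM, and with Col28a1 it took 0.404%. For Col15a1 the group medians spanned 3.48 to 5.06 CPM, for Col7a1 4.30 to 5.52, for Col8a2 2.01 to 3.23 and for Col26a1 2.29 to 3.10.

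The collagen genes varied more from mouse to mouse than most genes. The SD of log2 CPM within groups had a median of 0.326 over the 42 genes and 0.118 over all 15570 genes tested, and all 42 lay above the latter. Low genes vary more than high ones, and 39 of the 42 were also above the median of the genes within 1.5-fold of their own mean level. The steadiest were Col25a1 and Col4a1 at 0.146 and Col11a1 at 0.159. The least steady was Col6a4, at 1.06, which ran from 0.334 CPM in Glu-CB1-KO open field replicate 7 to 22.7 CPM in Glu-CB1-WT open field replicate 1.

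Deletion of CB1 was accompanied by lower Col11a1 in both lines. A gene is called where edgeR's quasi-likelihood test gave it an adjusted p under 0.05 over all genes tested. Col11a1 (chr3:114030540-114220326, mm10, plus strand) was called in 1 line after the open field and in each line with its states pooled. Col23a1 (chr11:51289920-51583925, mm10, plus strand) was called once, in the opposite direction. The 250 bases before the RefSeq start of each gene (GRCm38.p6) are shown because these were the only collagen genes called between genotypes. Capitals mark the GC box GGGCGG, the CCAAT box or the TATAAA motif on either strand, so that the complement of CCAAT reads ATTGG and that of GGGCGG reads CCGCCC.
Col11a1 upstream, chr3:114030290-114030539, plus strand: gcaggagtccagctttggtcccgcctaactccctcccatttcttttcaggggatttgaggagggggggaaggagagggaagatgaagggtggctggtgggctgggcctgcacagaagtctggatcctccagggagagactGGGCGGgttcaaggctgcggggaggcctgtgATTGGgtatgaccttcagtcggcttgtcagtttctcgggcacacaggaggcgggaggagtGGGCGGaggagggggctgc
Col23a1 upstream, chr11:51289670-51289919, plus strand: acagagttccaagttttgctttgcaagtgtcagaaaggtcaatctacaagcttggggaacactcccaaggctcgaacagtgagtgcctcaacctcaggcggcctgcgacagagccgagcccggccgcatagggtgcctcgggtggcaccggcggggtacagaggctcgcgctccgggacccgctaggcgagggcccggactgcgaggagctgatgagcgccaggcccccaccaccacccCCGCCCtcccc
The Col11a1 stretch held 2 GGGCGG and 1 CCAAT and the Col23a1 stretch 1 GGGCGG, while neither held TATAAA. Of 32851 RefSeq windows of this length, 32.7% held GGGCGG, 33.8% CCAAT and 12.4% TATAAA. Among the 33 collagen genes with a window, 21 held GGGCGG in any of their windows, 12 held CCAAT and 3 held TATAAA. These counts are per gene and the shares before them per window, so the figures cannot be set against each other. A match of letters is a description of the window and not a site.

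At basal conditions in the Glu-CB1 line, Col11a1 was at 56.5, 39.7, 47.2, 48.5 and 48.7 CPM in the WT mice and at 32.6 (lowest), 41.8 (median) and 46.3 (highest) in the 7 KO mice. The groups overlapped, since 1 WT mouse lay among the KO mice. The log2 fold change was -0.25 ± 0.09 (SE; unadjusted p = 0.0162; adjusted p = 0.999) and was not called. In this comparison none of the 42 collagen genes was called, where 0.0198% of 15138 genes were, and 1 had an unadjusted p under 0.05, where 3.57% of all genes did. DESeq2 called none either. The largest values were 0.42 for Col8a2 and -0.30 for Col28a1.

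After the open field in the Glu-CB1 line, Col11a1 was at 48.8, 49.9, 51.0, 62.0 and 56.2 CPM in the WT mice and at 33.5, 40.3 and 42.1 (lowest, median and highest) in the 7 KO mice. Every KO mouse lay below every WT mouse. The mean was 53.6 ± 5.5 (SD, n = 5) against 38.6 ± 3.6 (n = 7), and the log2 fold change of -0.48 ± 0.07 had an adjusted p of 0.00969, rank 11 of 15078 genes. In bulk tissue, fewer cells that make a transcript and less of it per cell cannot be told apart.

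In the same comparison Col23a1, a membrane collagen that can be shed from the cell surface, was at 9.08, 9.86, 7.47, 11.5 and 9.96 CPM in the WT mice and at 11.6, 15.7 and 19.0 (lowest, median and highest) in the KO mice. Every KO mouse lay above every WT mouse, the closest pair being 11.6 and 11.5. The log2 fold change was 0.67 ± 0.13 with an adjusted p of 0.0492. This call stood at the threshold: it held in 1 of 12 fits that left out a mouse, the one without Glu-CB1-KO open field replicate 5, and the adjusted p of those fits ran from 0.0330 to 0.135. These 2 of 42 genes were called where 0.272% of all genes were (0.146% higher and 0.126% lower), and they were also the only 2 whose groups did not overlap, where 0.716% of all genes did not. In the other comparisons of genotype within a line and state the groups of every collagen gene overlapped, where those of 0.205% (Glu-CB1 basal), 0.696% (GABA-CB1 basal) and 0.98% (GABA-CB1 open field) of all genes did not. By an unadjusted p under 0.05, 4 of the 42 passed, where 6.97% of all genes did. Of the other 40 genes none was called; the lowest value was that of Col6a4, at -0.78 on the log2 scale, which did not pass the test.

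Other tissue markers moved in the same comparison. The summed level of 6 thalamus markers, none at 0, was 74.8 to 81.3 CPM in Glu-CB1-KO open field and 95.9 to 109.5 in Glu-CB1-WT open field, without overlap. Of the 6, Prkcd and Plekhg1 were called at -0.58 and -0.42 on the log2 scale. These 2 had the highest mean levels of the list, 38.9 and 34.8 CPM, and so weigh most in the sum. Another 2 of the 6 had positive values, and the median over the list was -0.15. The summed level of 5 CA1 pyramidal markers, none at 0, was 637 to 791 CPM in KO and 788 to 862 in WT. Of the 5, 3 had positive values and the median over the list was 0.07. Neurod6, the gene also known as Nex, was called at -0.78 and had the highest mean of the list, 303.5 CPM. Cre is driven by nex1 elements in this line, so Neurod6 is not a marker of tissue alone here. The part of the Cre driver in its value was not tested. All 4 CA3 pyramidal markers had negative values with an unadjusted p under 0.05 (median -0.24), of which Iyd was called at -0.56, and their sum was 142 to 158 CPM in KO and 150 to 207 in WT. Of 3 neocortex markers Fezf2 was called, at 0.33. All 5 interneuron markers had positive values, 3 with an unadjusted p under 0.05 (median 0.12). Their sum was 783 to 878 CPM in KO and 653 to 794 in WT. None of 5 oligodendrocyte markers had a positive value, and 3 had an unadjusted p under 0.05 (median -0.11). No gene of these last lists was called. The part of all these markers in the Col11a1 and Col23a1 values was not tested. In the GABA-CB1 line the thalamus sum overlapped between genotypes in both states, at 82.1 to 114 CPM in KO and 83.8 to 107.5 in WT after the open field and at 89.6 to 106.7 and 91.0 to 120.3 at basal conditions.

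At basal conditions in the GABA-CB1 line, Col11a1 was at 41.04, 54.4 and 58.3 CPM (lowest, median and highest) in the 6 WT mice and at 35.8, 41.2 and 45.5 in the 6 KO mice. The groups overlapped at their edges, and the log2 fold change was -0.34 ± 0.09 (unadjusted p = 0.00156; adjusted p = 0.195). No collagen gene was called, where 0.245% of 15082 genes were, and 7 had an unadjusted p under 0.05, where 8.16% of all genes did. DESeq2 called Col11a1 here, at an adjusted p of 0.0267, and no other collagen gene. The largest values were 0.48 for Col6a4 and -1.19 for Col8a1.

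After the open field in the GABA-CB1 line, Col11a1 was at 39.8, 46.4 and 54.6 CPM in the 7 WT mice and at 44.5, 38.08, 37.7, 38.2 and 41.9 in the 5 KO mice. The groups overlapped, with 3 KO mice below the lowest WT mouse. The log2 fold change was -0.24 ± 0.07 (unadjusted p = 0.00476; adjusted p = 0.248). No collagen gene was called, where 0.0199% of 15097 genes were, and 9 had an unadjusted p under 0.05, where 13.2% of all genes did. DESeq2 called Col5a2, a type V chain, which is named after its values were seen (adjusted p = 0.0193 by DESeq2 and 0.191 by edgeR, log2 fold change -0.38 ± 0.10). It was at 17.7, 19.3 and 25.9 CPM in the WT mice and at 18.5, 14.2, 16.3, 14.4 and 14.5 in the KO mice, so 4 of the 5 KO mice lay below all WT mice. The summed level of 5 interneuron markers, none at 0, was 702 to 745 CPM in KO and 770 to 819 in WT here, and its part in the value was not tested.

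**Figure D2:**
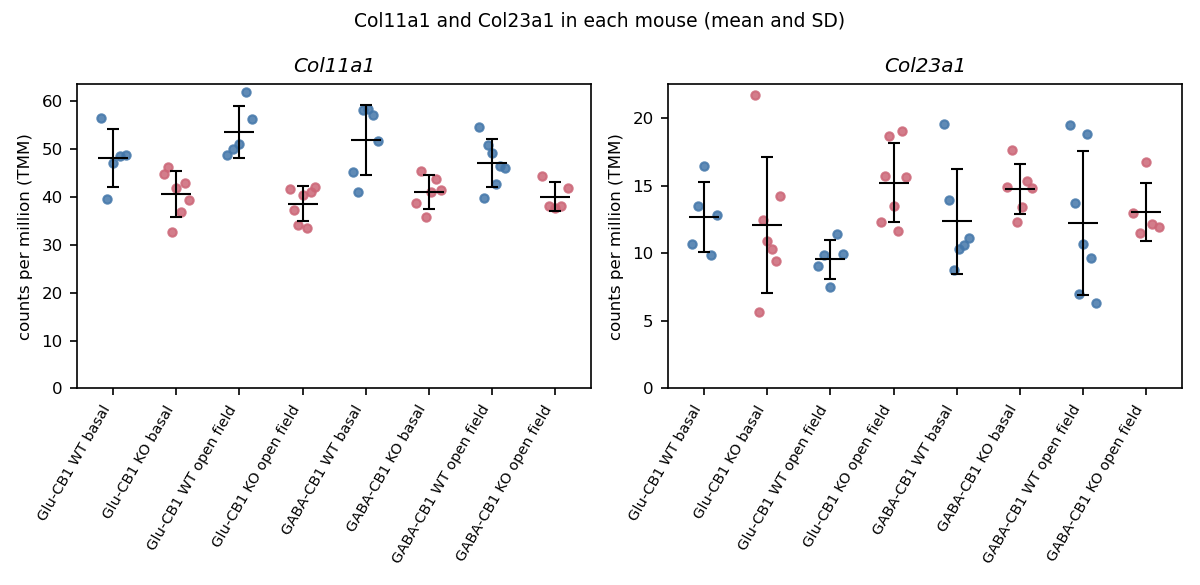
Col11a1 (left) and Col23a1 (right) in each mouse, in CPM scaled by TMM. Dots are mice, blue for WT and red for KO, and bars give the mean and SD of the 8 groups; the Col11a1 mean of each KO group, 38.6 to 41.04, lies below that of each WT group, 47.1 to 53.6, and for Col23a1 the groups are apart only in the Glu-CB1 line after the open field.

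Pooling both states, Col11a1 was the only collagen gene called in either line. These fits reuse the mice of the comparisons above. For Glu-CB1 mice the pooled log2 fold change was -0.36 ± 0.06 (adjusted p = 0.00593, rank 17 of 15355 genes, of which 0.274% were called). For GABA-CB1 mice it was -0.29 ± 0.06 (adjusted p = 0.0210, rank 33 of 15374 genes, of which 0.358% were called). By an unadjusted p under 0.05, 4 of the 42 genes passed in each line, where 7.31% of all genes did for Glu-CB1 mice and 8.18% for GABA-CB1 mice. Genes of the marker lists were called in the same fits. For Glu-CB1 mice they were Neurod6, the Nex gene of the Cre driver of that line (-0.72), Plekhg1 of the thalamus list (-0.38) and the interneuron marker Sst (0.36). For GABA-CB1 mice they were Sst (-0.31) and Pvalb (-0.17). Their part in the Col11a1 values was not tested. The Col11a1 call for Glu-CB1 mice held in all 24 fits that left out a mouse. That for GABA-CB1 mice was lost without GABA-CB1-KO basal replicate 1 (adjusted p = 0.0507) and without GABA-CB1-KO open field replicate 3 (0.0501), and also without the 4 libraries high in Ttr (0.0573).

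Over all mice, a comparison added after the values had been seen, Col11a1 was at 39.7, 49.1 and 62.0 CPM (lowest, median and highest) in the 23 WT mice and at 32.6, 40.99 and 46.3 in the 25 KO mice. Of the KO mice, 11 lay below the lowest WT mouse, and of the WT mice, 17 lay above the highest KO mouse. The mean was 19.9% lower in KO, by 22.1% among Glu-CB1 mice and 17.7% among GABA-CB1 mice. The log2 fold change was -0.32 ± 0.04 (adjusted p = 2.68e-05), which ranked Col11a1 second of 15570 genes by p, where 0.135% were called (0.128% lower). It held in all 48 fits that left out a mouse. By an unadjusted p under 0.05, 5 of the 42 genes passed, where 7.33% of all genes did, and Col11a1 alone was called. Of the marker lists Neurod6, the Nex gene of the Cre driver of the Glu-CB1 line, was called here too, at -0.37 on the log2 scale.

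The fall of Col11a1 was not shown to differ between lines or states. The knockout effect in the Glu-CB1 line minus that in the GABA-CB1 line was 0.09 ± 0.13 on the log2 scale at basal conditions (adjusted p = 0.879) and -0.24 ± 0.11 after the open field (unadjusted p = 0.0321; adjusted p = 0.405). The change of the effect with state was -0.23 ± 0.12 for Glu-CB1 mice (adjusted p = 1.0) and 0.10 ± 0.12 for GABA-CB1 mice (adjusted p = 0.705). Over these 4 contrasts no collagen gene was called, while the share of all genes called was 0.279% and 0.568% for the differences between lines and 0.0% for both changes with state. By an unadjusted p under 0.05 it was 2 and 7 of the 42 for the differences between lines at basal conditions and after the open field, where 8.56% and 10.8% of all genes passed, and 1 and 8 for the changes with state in the Glu-CB1 and GABA-CB1 lines, where 2.47% and 14.6% did. DESeq2 called no collagen gene in these contrasts.

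Col11a1 was also lower in KO mice within each kind of library. Among the 14 libraries low in Xkr4 it was at 45.2 to 57.1 CPM (mean 52.2) in 7 WT mice and 32.6 to 46.3 (mean 40.7) in 7 KO mice. Among the other 34 it was at 39.7 to 62.0 (mean 49.0) in 16 WT mice and 33.5 to 44.5 (mean 39.8) in 18 KO mice. The genes whose variation within groups was most like that of Col11a1 over the 48 libraries were Rhobtb1 (r = 0.63), Kif19a (0.62), Hcrtr1 (0.59) and Col5a3 (0.59).

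Col23a1 was not called in any other comparison of genotype. At basal conditions it was at 10.7, 13.5, 16.5, 9.89 and 12.9 CPM in Glu-CB1-WT and at 5.63, 10.9 and 21.7 (lowest, median and highest) in Glu-CB1-KO, where the log2 fold change stood at -0.07 ± 0.24. In the GABA-CB1 line the WT mice ran from 8.79 to 19.6 CPM at basal conditions and from 6.29 to 19.5 after the open field, and the KO mice from 12.3 to 17.7 and from 11.5 to 16.8. The KO range lay inside the WT range in both states of that line, but 8 of the 13 WT mice lay below the lowest KO mouse, the medians of KO and WT were 14.9 and 10.9 CPM at basal conditions and 12.2 and 10.7 after the open field, and the log2 fold changes were 0.26 ± 0.16 (adjusted p = 0.706) and 0.09 ± 0.25. The change of the effect with state in the Glu-CB1 line was 0.74 ± 0.30 (unadjusted p = 0.0186; adjusted p = 1.0). Col23a1 varied most like Col6a2 (r = 0.85) and Col5a1 (r = 0.82) over the 48 libraries.

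The other collagen genes were compared by class. In the Glu-CB1 line the median log2 fold change of the 42 genes was -0.05 at basal conditions and -0.03 after the open field, against 0.00 for all genes in both, and 19 and 17 genes were positive. In the GABA-CB1 line the median was -0.07 at basal conditions, with 14 positive, and 0.18 after the open field, with 32 positive, again against 0.00 for all genes. All 6 basement membrane chains had negative values in the GABA-CB1 line at basal conditions, from -0.54 to -0.15, and positive values after the open field, from 0.01 to 1.04. The pair Col8a1 and Col8a2 had the largest values, -1.19 and -0.27 at basal conditions and 1.47 and 1.27 after the open field. None of these passed the test.

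Of the 4 libraries high in Ttr, 1 was in GABA-CB1-WT basal and 1 in GABA-CB1-KO open field. Each of these GABA-CB1 comparisons thus held 1 such library, and the others were of Glu-CB1 mice. In GABA-CB1-KO open field replicate 4, where Ttr was at 3940 CPM, Col8a1 was at 8.75 CPM, 9.70 times the median of the other mice of its group. In GABA-CB1-WT basal replicate 3, with Ttr at 1411 CPM, it was at 6.62 CPM, or 6.45 times. In Glu-CB1-KO basal replicate 6 and Glu-CB1-KO open field replicate 4, with Ttr at 556 and 236 CPM, it was at 3.01 and 1.95 CPM, or 3.46 and 2.14 times. The order of Col8a1 over these 4 libraries was that of Ttr, which encodes transthyretin, the main secreted protein of the choroid plexus.

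Col8a2, Col9a3, Col4a3 and Col4a4, picked here after their values were seen, were also high in the GABA-CB1 libraries of this kind. The ratio to the median of the other mice of the group in GABA-CB1-KO open field replicate 4 was 5.61 for Col8a2, 5.39 for Col9a3, a chain of the fibril-associated type IX, 6.81 for Col4a3 and 5.64 for Col4a4. In GABA-CB1-WT basal replicate 3 it was 4.93, 2.86, 2.38 and 3.06. In the Glu-CB1 libraries the ratios were smaller, at 1.95, 1.961, 1.61 and 1.36 in Glu-CB1-KO basal replicate 6 and at 1.34, 1.47, 1.00 and 1.23 in Glu-CB1-KO open field replicate 4, where only Col9a3 of the 4 lay above all other mice of the group. Of the chains of mesenchymal fibrils, Col3a1 was at 3.51 and 2.02 times, Col1a2 at 2.80 and 2.06 and Col1a1 at 2.48 and 1.61. These were also high in GABA-CB1-KO open field replicate 1, which was not high in Ttr, with Col3a1 at 3.81 CPM against 4.00 in replicate 4, Col1a1 at 7.69 against 8.72 and Col1a2 at 11.2 against 20.3. Over the GABA-CB1-KO open field group the summed level of 10 fibroblast markers, none at 0, ran from 87.8 to 270.1 CPM with a median of 95.6. These values are of the group and are not assigned to a mouse here. Col4a1 was at 1.14 and 0.942 times and Col6a1 at 0.580 and 0.598 times.

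The summed level of 8 choroid plexus markers, none at 0, was 65.1 to 4130 CPM in GABA-CB1-KO open field and 56.2 to 98.5 in its WT group, and 57.9 to 1540 CPM in GABA-CB1-WT basal and 52.6 to 92.9 in its KO group. Without the 4 libraries, 21 of the 42 genes were positive in the GABA-CB1 line after the open field and the median log2 fold change was 0.01. After the open field this left out GABA-CB1-KO open field replicate 4 alone, and at basal conditions GABA-CB1-WT basal replicate 3 alone. Col8a1 then stood at -0.04 ± 0.18 after the open field and -0.24 ± 0.22 at basal conditions, and Col4a4 at 0.09 ± 0.14 and -0.01 ± 0.18. The change of the knockout effect with state in the GABA-CB1 line, which had a median of 0.22 over the 42 genes and reached 2.66 for Col8a1, had a median of -0.02 and 0.20 for Col8a1 without them.

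**Figure D3:**
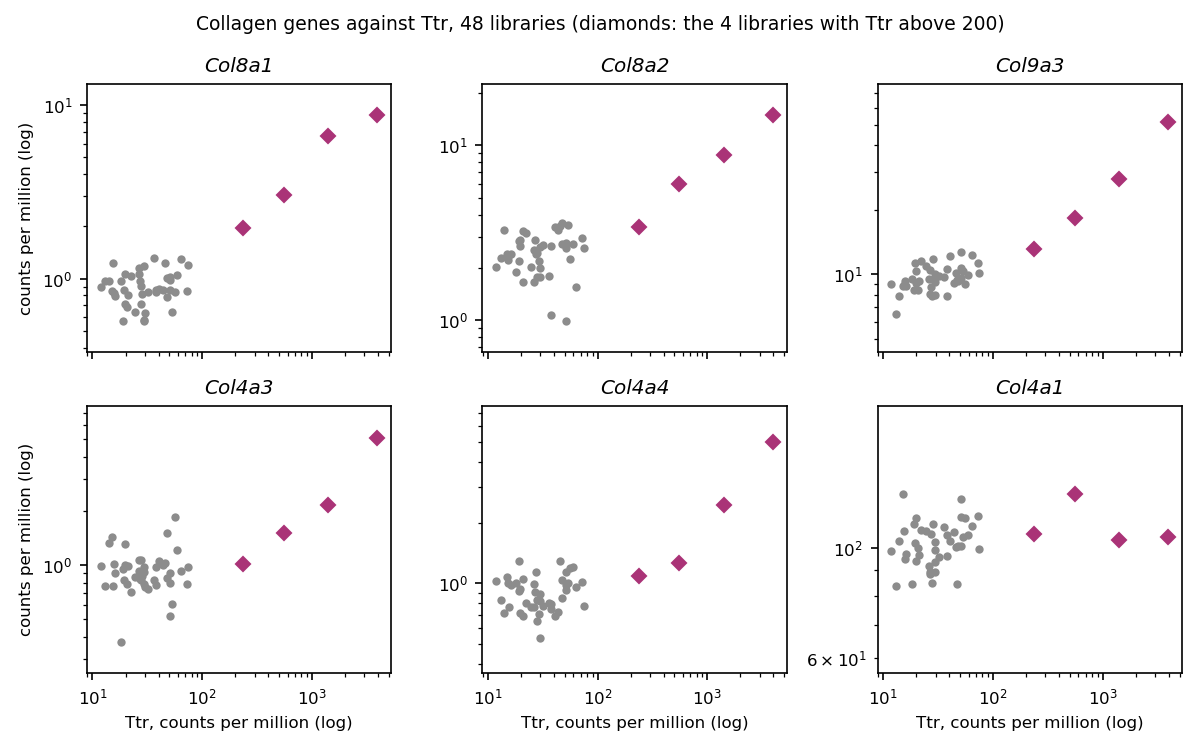
Level of 6 collagen genes against Ttr in the 48 libraries, both in CPM on log axes. Grey dots are the 44 libraries with Ttr at 11.9 to 74.7 CPM and diamonds the 4 with Ttr at 236 to 3940; the diamonds rise with Ttr for Col8a1, Col8a2, Col9a3, Col4a3 and Col4a4, while for Col4a1 they lie at 104 to 128 CPM in no such order.

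Other collagen genes differed between the 14 libraries low in Xkr4 and the rest. All 14 belonged to mice of the lowest of 3 ranges of animal numbers, which held 24 libraries, and each group had 1 to 3 of them. Col19a1 was at 46.1, 52.7 and 57.0 CPM (lowest, median and highest) in these libraries and at 49.6, 71.8 and 81.4 in the other 34. Col25a1 was at 104, 126 and 142 CPM against 121, 148 and 165. Col6a1 went the other way, at 54.7, 78.2 and 111 CPM against 35.03, 62.1 and 103. With group means removed the difference was -0.42 on the log2 scale for Col19a1 and -0.20 for Col25a1. It was 0.38 for Col6a1, 0.34 for Col6a2, 0.22 for Col23a1 and 0.05 for Col11a1. Over the 42 genes 29 were higher and 13 lower, with a median of 0.09 against 0.00 for all genes. Over all genes the difference correlated with the GC content of the transcript at a Spearman's rho of 0.42, and over the collagen genes, whose median GC was 55.1% against 49.8%, at 0.49. These are descriptions across genes, which share the libraries and are not independent replicates.

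Col19a1 varied most like Erbb4 (r = 0.92), the receptor of neuregulins in interneurons, and Grin2b (r = 0.92), an NMDA receptor subunit, and Col25a1 most like Osbpl8 (r = 0.90). The values of Col19a1 and Col25a1 moved with the library kind, and its part in these correlations was not tested.

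The open field alone changed no collagen gene at the threshold. None of the 42 was called in the Glu-CB1 line, where 1.8% of all genes were, nor in the GABA-CB1 line, where 0.963% were, nor over all 48 mice, where 9.12% of 15570 genes were. By an unadjusted p under 0.05, 3 of the 42 passed over all mice, all of them with lower values, where 21.7% of all genes passed, against 0 among Glu-CB1 mice (13.9% of all genes) and 1 among GABA-CB1 mice (12.1%). DESeq2 called none in these 3 comparisons either. Library numbers in the labels ran by line and state, so the state and the order of the numbers cannot be told apart.

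Col9a1, the first chain of type IX, came nearest. It was at 0.383, 0.728 and 1.11 CPM (lowest, median and highest) in the 24 basal mice and at 0.358, 0.604 and 1.01 in the 24 open field mice. The ranges overlapped almost fully, and the log2 fold change was -0.27 ± 0.09 (unadjusted p = 0.00554; adjusted p = 0.0571). The largest rise over all mice was that of Col4a3, at 0.23, which turned to -0.04 without GABA-CB1-KO open field replicate 4. In the Glu-CB1 line the largest values were 0.24 for Col13a1 and -0.26 for Col3a1. For Col11a1 the open field value over all mice was -0.04 (adjusted p = 0.715).

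Between the WT mice of both lines no collagen gene was called, and neither was any of the 15350 genes tested (0.0%), of which 3.86% had an unadjusted p under 0.05, as did 1 collagen gene. The largest values were 0.34 for Col9a1, higher in the Glu-CB1 line, and -0.55 for Col8a1. DESeq2 called no collagen gene here.

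The genes that make, process, bind and break down collagen were counted from lists of 66 to 69 tested genes per comparison. None was called between genotypes by edgeR in any line or state, or with states pooled, where 0.0198% to 0.358% of all genes were, and 3 to 9 had an unadjusted p under 0.05, where 3.57% to 13.2% of all genes did. DESeq2 called Timp2, an inhibitor of metalloproteinases, in the Glu-CB1 line after the open field and Loxl1, a cross-linking lysyl oxidase, in the GABA-CB1 line with states pooled. Over all mice 5 of 69 were called higher and 2 lower after the open field, where 9.12% of all genes were called, so the count lay near that of genes at large and the values below describe single genes. Of 21 genes for folding and modification 4 were higher and of 10 receptor genes 1 was higher, while 1 of 10 genes for breakdown and its inhibitors and 1 of 16 basement membrane partners were lower, and none of 12 for processing and cross-linking was called.

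P4ha1, the catalytic subunit of prolyl 4-hydroxylase that stabilises the helix, was at 48.5, 54.5 and 70.1 CPM (lowest, median and highest) in the 24 basal mice and at 58.3, 65.0 and 102 in the 24 open field mice. The medians were further apart than the SD of either state, with overlap at the edges. Its log2 fold change was 0.29 ± 0.04 over all mice (adjusted p = 1.16e-05), 0.32 among Glu-CB1 mice (adjusted p = 0.00997) and 0.26 among GABA-CB1 mice (adjusted p = 0.0144). Its paralogue P4ha2 rose by 0.17 ± 0.04 (adjusted p = 0.0037), Plod3, a lysyl hydroxylase, by 0.10 ± 0.03 (adjusted p = 0.0311) and Tmem38b, an endoplasmic reticulum cation channel needed for collagen modification, by 0.10 ± 0.03 (adjusted p = 0.0185).

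Itga10, the alpha chain of a collagen-binding integrin, was at 2.53, 4.24 and 6.16 CPM in the basal mice and at 3.66, 6.00 and 12.2 in the open field mice. The ranges overlapped, the open field median lying near the top of the basal range, and the log2 fold change was 0.59 ± 0.11 (adjusted p = 0.000189). Lamb3, a laminin chain, was at 0.850, 1.30 and 1.56 CPM and at 0.673, 1.00 and 1.27, with a log2 fold change of -0.34 ± 0.07 (adjusted p = 0.000912), and Reck, a membrane inhibitor of matrix metalloproteinases, fell by 0.14 ± 0.03 (adjusted p = 0.00356).

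Chains that share a molecule were compared across the 48 mice after removal of the group means, in 10 relations whose permutation p-values were adjusted together. Col4a1 and Col4a2, which form the usual type IV molecule and lie head to head on chromosome 8 with 2 bp between them, were correlated at a Pearson's r of 0.90 and a Spearman's rho of 0.88 (adjusted p = 3.33e-05 for both, from the smallest p the permutations can give, 1e-05). Without the 2 libraries farthest from the median r was 0.90. In the other 34 libraries r and rho were both 0.94, while in the 14 libraries low in Xkr4 r was 0.83 and rho 0.29. Group means were removed again within the 14. There GABA-CB1-KO basal, GABA-CB1-KO open field and GABA-CB1-WT open field held 1 library each, which then carries no information. The values for the 14, here and for the next pairs, thus rest on fewer mice. Col6a1 and Col6a2, chains of the type VI molecule, gave 0.84 and 0.80 (adjusted p = 3.33e-05 for both), 0.82 without the 2 libraries, an r of 0.88 and a rho of 0.93 in the 14 libraries, and 0.75 and 0.74 in the other 34. Col1a1 and Col1a2 gave 0.76 and 0.69 (adjusted p = 3.33e-05 for both), 0.66 without the 2 libraries, an r of 0.57 and a rho of 0.68 in the 14, and 0.75 and 0.68 in the other 34. Col4a2 was the gene most like Col4a1 of 15047 ranked, and Col6a2 the gene most like Col6a1.

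The other pairs were less steady. Median counts per library were 27.5 for Col8a1, 29 for Col4a3, 28 for Col4a4 and 20 for Col9a1, against 3117 for Col4a1. At such counts a lower correlation cannot be told apart from counting noise. Col8a1 and Col8a2 gave an r of 0.76 and a rho of 0.46 (adjusted p = 0.00115 and 0.0115), where r became 0.37 without the 2 farthest libraries (adjusted p = 0.0413) and 0.13 without the 4 libraries high in Ttr. Col4a3 and Col4a4, the chains of the kidney and cochlear type IV network, gave 0.72 and 0.47 (adjusted p = 0.0106 and 0.0127), then an r of 0.51 (adjusted p = 0.0343) and 0.08. Col4a5 and Col4a6 gave 0.64 and 0.47 (adjusted p = 0.00134 and 0.0081), then an r of 0.38 (adjusted p = 0.0374) and 0.38. Col9a1 and Col9a3 gave 0.25 and 0.18 (adjusted p = 0.235 and 0.240).

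Col4a3 and Col4a4 also lie head to head, with 71 bases between their starts, and these bases are shown because a short shared stretch separates genes whose r fell to 0.08 without the 4 libraries high in Ttr.
Col4a4 to Col4a3, chr1:82586850-82586920, plus strand, GRCm38.p6: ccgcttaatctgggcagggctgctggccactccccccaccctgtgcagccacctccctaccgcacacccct
The stretch, 69.0% G or C, held none of the 3 motifs on either strand.

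Against cell markers, Col1a1 followed the summed level of 10 fibroblast markers with an r of 0.47 and a rho of 0.41 (adjusted p = 0.0154 and 0.0127), 0.38 without the 2 farthest libraries (adjusted p = 0.0374) and 0.22 without the 4 libraries high in Ttr. For Col4a1 and the sum of 8 mural cell markers rho passed and r did not (0.40 and 0.32; adjusted p = 0.0127 and 0.0501), and r was 0.25 without the 2 farthest libraries (adjusted p = 0.134). With the sum of 7 endothelial markers neither passed, at an r of 0.17 and a rho of 0.25 (adjusted p = 0.326 and 0.128). The gene most like Col1a1 was Col3a1 (r = 0.81), followed by Pcolce (0.79), which enhances the trimming of procollagen. Those most like Col8a1 were Enpp2 (0.89), Cldn2 (0.88) and Col9a3 (0.88).

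**Figure D4:**
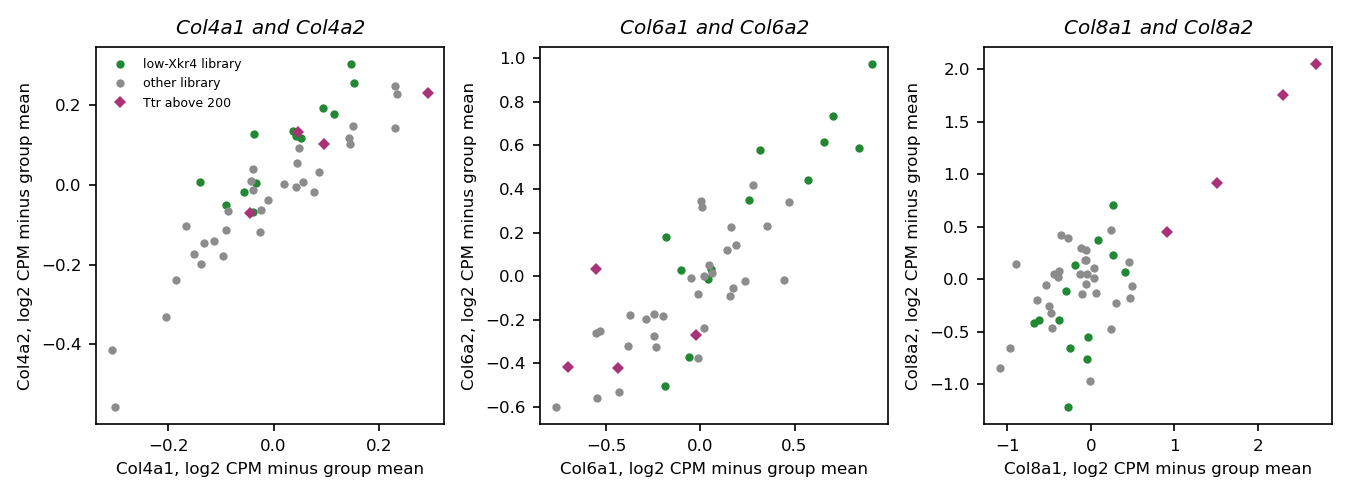
Co-variation of 3 collagen pairs over the 48 libraries, as log2 CPM minus the group mean on both axes. Green dots are the 14 libraries low in Xkr4, grey dots the other libraries and diamonds the 4 with Ttr above 200 CPM; Col4a1 with Col4a2 (r = 0.90) and Col6a1 with Col6a2 (r = 0.84) form a band, while for Col8a1 with Col8a2 (r = 0.76) the diamonds lie at the far end.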

How the data were processed

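Raw counts per gene were deposited by the authors as 1 table of 24421 genes and 48 libraries, made from NuGEN Ovation amplified cDNA with STAR 2.6.0a on mm10 and featureCounts 1.6.2 (MultiQC 1.8), per the labels. No column was left unused. Groups came from the labels. Counts were tested with edgeR 4.0.16 in R 4.3.3 (TMM, filterByExpr, quasi-likelihood test, Benjamini-Hochberg over all genes tested), in fits of the groups compared; SE is the log2 fold change divided by the root of F. Levels are CPM scaled by TMM, divided by exon length where genes are compared. Single levels of Cnr1, Ttr and Xkr4 are CPM of total counts without TMM. Alternatives were DESeq2 1.42.0, other size factors, filters, covariates, a replicate block and leaving out each library. The all-mice comparison, the fits without 4 libraries (Ttr over 200 CPM) and with library kind (Xkr4 under 7 CPM) as a covariate were added after seeing the data. A fit without the 4 libraries leaves out only those of them that belong to the groups compared. Correlations used 100000 permutations. The scripts were tested on simulated data. Members, classes and lists were chosen with earlier results of these data known. Named with values by rule were called members, the highest member per kb of each class, and the largest rise and fall of each comparison. Col5a2, and Col9a3, Col4a4, Col1a1 and Col1a2 in the account of the libraries high in Ttr, were named after their values were seen. Promoter sequences are RefSeq's, of which 33 of 42 members matched. No pair of replicates agreed within sampling noise (lowest chi-square per degree of freedom 2.93 over 123 pairs).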

Additional observations from a re-analysis of the deposited data

Results flagged for a closer look

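Of 104 sets of a gene and a group, over 13 genes, 16 held a library that lay apart from the rest of its group. Chance flags about 1 in 20 such sets, or 5.2 here. The 13 genes included Col9a3, which was named after its values in the libraries high in Ttr were seen. The count of 16 is therefore a description and not a test against that rate. Of these 16, 10 were in libraries high in Ttr. In GABA-CB1-KO open field replicate 4 they were Col8a1 at 8.75 CPM, Col8a2 at 14.9 and Col9a3 at 51.3. In GABA-CB1-WT basal replicate 3 they were Col8a1 at 6.62 CPM, Col8a2 at 8.82 and Col9a3 at 27.8. In Glu-CB1-KO basal replicate 6 they were Col8a1 at 3.01 CPM, Col8a2 at 6.02 and Col9a3 at 18.3, and in Glu-CB1-KO open field replicate 4 it was Col8a1 at 1.95 CPM.

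The other 6 were in libraries with Ttr at 13.1 to 51.0 CPM, and their number lay near the 5.2 that chance gives over the 104 sets. Glu-CB1-KO open field replicate 5 was lowest of its group for Col4a2, at 88.2 CPM, and for Col7a1, at 2.76 CPM. Col19a1 was lowest in GABA-CB1-KO basal replicate 2, at 54.3 CPM, and in GABA-CB1-WT open field replicate 1, at 51.8 CPM. Col15a1 was highest in GABA-CB1-WT basal replicate 4, at 5.95 CPM, and Col23a1 in GABA-CB1-KO open field replicate 3, at 16.8 CPM.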

How the results depend on the processing

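The count of 2 called collagen genes in the Glu-CB1 line after the open field became 1 (Col11a1) with RLE size factors, with all 48 libraries in 1 fit, with the animal number range as a covariate and without the 4 libraries high in Ttr, and 1 to 2 when a mouse was left out. The count of 0 in the GABA-CB1 line became 1 by DESeq2 at basal conditions (Col11a1) and after the open field (Col5a2), and at basal conditions it was 0 to 1 when a mouse was left out, being 1 without GABA-CB1-WT basal replicate 2. The count of 1 in the GABA-CB1 line with states pooled became 0 with the animal number range as a covariate and without the 4 libraries, and was 0 to 1 when a mouse was left out, being 0 without GABA-CB1-KO basal replicate 1 or open field replicate 3. Over all mice the open field count was 0 to 1, Col9a1 being called without Glu-CB1-WT basal replicate 2, Glu-CB1-KO basal replicate 3, Glu-CB1-WT open field replicate 4, Glu-CB1-KO open field replicate 2, GABA-CB1-WT basal replicate 1 or 2, GABA-CB1-KO basal replicate 3 or 4, or GABA-CB1-KO open field replicate 2 or 4 (adjusted p from 0.0268 to 0.0985 over the 48 fits). The correlation of Col4a1 with the mural markers was 0.34 on unscaled CPM and then passed (adjusted p = 0.0315).

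Log2 fold changes that turned, none of them called, are given as the range over fits without a mouse. Col23a1 ran from -0.28 to 0.050 in Glu-CB1 mice at basal conditions and from -0.023 to 0.25 in GABA-CB1 mice after the open field, where Col8a1 ran from -0.042 to 1.72. Col8a2 ran from -0.024 to 0.85 in GABA-CB1 mice with states pooled. For the open field, Col4a3 ran from -0.23 to 0.53 in GABA-CB1 mice and from -0.036 to 0.32 over all mice. The difference between lines after the open field ran from -1.42 to 0.34 for Col8a1. GABA-CB1-KO open field replicate 4 was the only library high in Ttr among GABA-CB1 mice after the open field. The fit without such libraries is there the same fit as the Col8a1 limit of -0.042. With the 4 libraries high in Ttr left out where present, Col4a3 for the open field in GABA-CB1 mice stood at -0.043. Col8a1 for the difference between lines then stood at 0.13. The cause was not tested.

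Replicate numbers did not pair the mice: over 21 pairs sharing a number the deviations from the group means correlated at -0.335 to 0.317, 4 over 0.1, and 4 of 21 KO mice were closest to the WT mouse of their number. With the replicate block the count became 0 in the Glu-CB1 line after the open field (Col11a1 adjusted p = 0.161, Col23a1 0.479) and 0 in the GABA-CB1 line with states pooled (Col11a1 0.0815), and Col23a1 in the GABA-CB1 line after the open field was at -0.041. All other counts stayed the same under the block. Members under 1 CPM are near the count limit, so small differences in them were not detectable at this depth.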
